A study of Mus musculus with 2 samples.

Results

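The 40 collagen genes described here are the mouse genes whose symbol has the form Col, number, a, number, without the 4 vascular basement membrane members Col4a1, Col4a2, Col15a1 and Col18a1. They were taken from 31253 genes counted in cells of the embryonic mouse brain at E12.5, and the choice used the symbol alone. One library came from Foxq1iECKO embryos and 1 from Foxq1flox/flox embryos, and in both the cells had been enriched with CD31 microbeads and counted by unique molecular identifiers (UMIs) at the 3′ end of transcripts. The labels name every cell endothelial, and they give neither the Cre line, nor the inducing agent, nor the number of embryos in a library. With 1 library per genotype no difference has a replicate check, and intervals below cover counting error only.

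Collagens are trimeric extracellular matrix proteins. The fibrillar types I, II, III, V and XI build the fibrils of connective tissue and cartilage, the fibril-associated types decorate them, while others form networks or beaded filaments or span the cell membrane. Type I is the main collagen of mesenchyme and bone and type II that of cartilage. In brain vessels the basement membrane members left out here predominate.

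The Foxq1iECKO library held 72445925 UMIs over 15108 barcodes and the Foxq1flox/flox library 76580165 UMIs over 15837 barcodes, of which 270 barcodes occurred in both. After filters and doublet removal 12592 Foxq1iECKO cells remained, with a median of 4061 UMIs, and 13399 Foxq1flox/flox cells, with a median of 4167 UMIs. In endothelial-like cells the targeted Foxq1 stood at 147 CPM (a gene's UMIs over all UMIs of the class, as counts per 1000000) in the Foxq1iECKO library and 442 CPM in the Foxq1flox/flox library. Cells were clustered with all collagens left out of the clustering genes, so the levels below took no part in the clustering. Collagens were among the genes given to the doublet prediction that removed cells before it. Although the cells were sorted for CD31, 2499 Foxq1iECKO and 2146 Foxq1flox/flox cells were mesenchymal-like, and 1008 Foxq1iECKO and 1452 Foxq1flox/flox cells were cartilage-like. The Foxq1iECKO library held 1611 endothelial-like, 308 mural-like, 2032 macrophage-like and 667 leukocyte-like cells. The Foxq1flox/flox library held 2286 endothelial-like, 277 mural-like, 1485 macrophage-like and 807 leukocyte-like cells. An unnamed cluster led by Actc1 and Aldh1a2 held 681 Foxq1iECKO and 839 Foxq1flox/flox cells with mesenchymal and muscle markers. Another, led by the pericyte genes Rgs5 and Abcc9, held 829 Foxq1iECKO cells with a median of 8746 UMIs and 478 Foxq1flox/flox cells with a median of 9510 UMIs. The marker list that matched this cluster best was the endothelial one, with 10 of 14 markers found, and Foxq1 and Foxf2 were among its leading genes. The haemoglobin cluster, also unnamed and led by haemoglobin genes, likewise matched the endothelial list best, with 14 of 14 markers found.

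Of the 40 members, 24 reached 50 CPM in a class of at least 100 cells, 4 reached 10 CPM and 12 stayed under 10 CPM in every such class. The promoters of 3 members that the results turn on are shown because these genes differ in the class where they were highest: mesenchymal-like for Col1a2 and Col3a1, cartilage-like for Col11a1. Each is the 250 bases before the RefSeq start, build GRCm38.p6, plus strand, with CCAAT (or its reverse complement ATTGG) and GGGCGG (or CCGCCC) in capitals.
Col1a2, chr6:4505368-4505617: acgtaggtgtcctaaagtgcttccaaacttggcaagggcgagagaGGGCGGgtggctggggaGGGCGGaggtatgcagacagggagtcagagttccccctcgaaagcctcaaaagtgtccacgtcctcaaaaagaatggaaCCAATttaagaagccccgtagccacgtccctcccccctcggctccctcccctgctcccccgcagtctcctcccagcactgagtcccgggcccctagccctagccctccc
Col3a1, chr1:45311288-45311537: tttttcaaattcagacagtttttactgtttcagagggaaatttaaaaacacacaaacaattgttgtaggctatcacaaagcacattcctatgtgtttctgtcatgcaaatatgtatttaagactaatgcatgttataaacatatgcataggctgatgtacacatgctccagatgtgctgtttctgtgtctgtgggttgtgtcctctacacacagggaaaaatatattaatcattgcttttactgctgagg
Col11a1, chr3:114030290-114030539: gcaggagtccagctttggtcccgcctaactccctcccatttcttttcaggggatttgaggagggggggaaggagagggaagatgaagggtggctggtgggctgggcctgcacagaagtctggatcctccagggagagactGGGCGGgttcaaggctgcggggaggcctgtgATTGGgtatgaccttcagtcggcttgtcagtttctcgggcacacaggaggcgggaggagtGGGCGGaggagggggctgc
Col1a2 had CCAAT 109 bases before its start, Col11a1 had ATTGG 79 bases before, and the Col3a1 window held neither motif. Either orientation of CCAAT stood in 5 of the 17 members of the 24 with a promoter entry, against 33.8% of all 32851 promoters, and GGGCGG or CCGCCC in 13 of 17, against 32.7%. These are matches of letters in a window, not binding sites.

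Mesenchymal-like and cartilage-like cells had the highest levels of the family. Of the 24 members at 50 CPM, 14 were highest in mesenchymal-like cells, 9 in cartilage-like cells and 1, Col25a1, in the Actc1 and Aldh1a2 cluster. The summed level was 27319 CPM in Foxq1iECKO and 23180 CPM in Foxq1flox/flox cartilage-like cells, and 23362 CPM in Foxq1iECKO and 18192 CPM in Foxq1flox/flox mesenchymal-like cells. It was 12179 CPM in Foxq1iECKO and 11039 CPM in Foxq1flox/flox cells of the Actc1 and Aldh1a2 cluster and 4073 CPM in Foxq1iECKO and 5711 CPM in Foxq1flox/flox mural-like cells. Endothelial-like cells held 514 CPM in the Foxq1iECKO library and 489 CPM in the Foxq1flox/flox library. The 3′ tag counts 1 end per transcript, so these levels do not scale with transcript length.

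**Figure D1:**
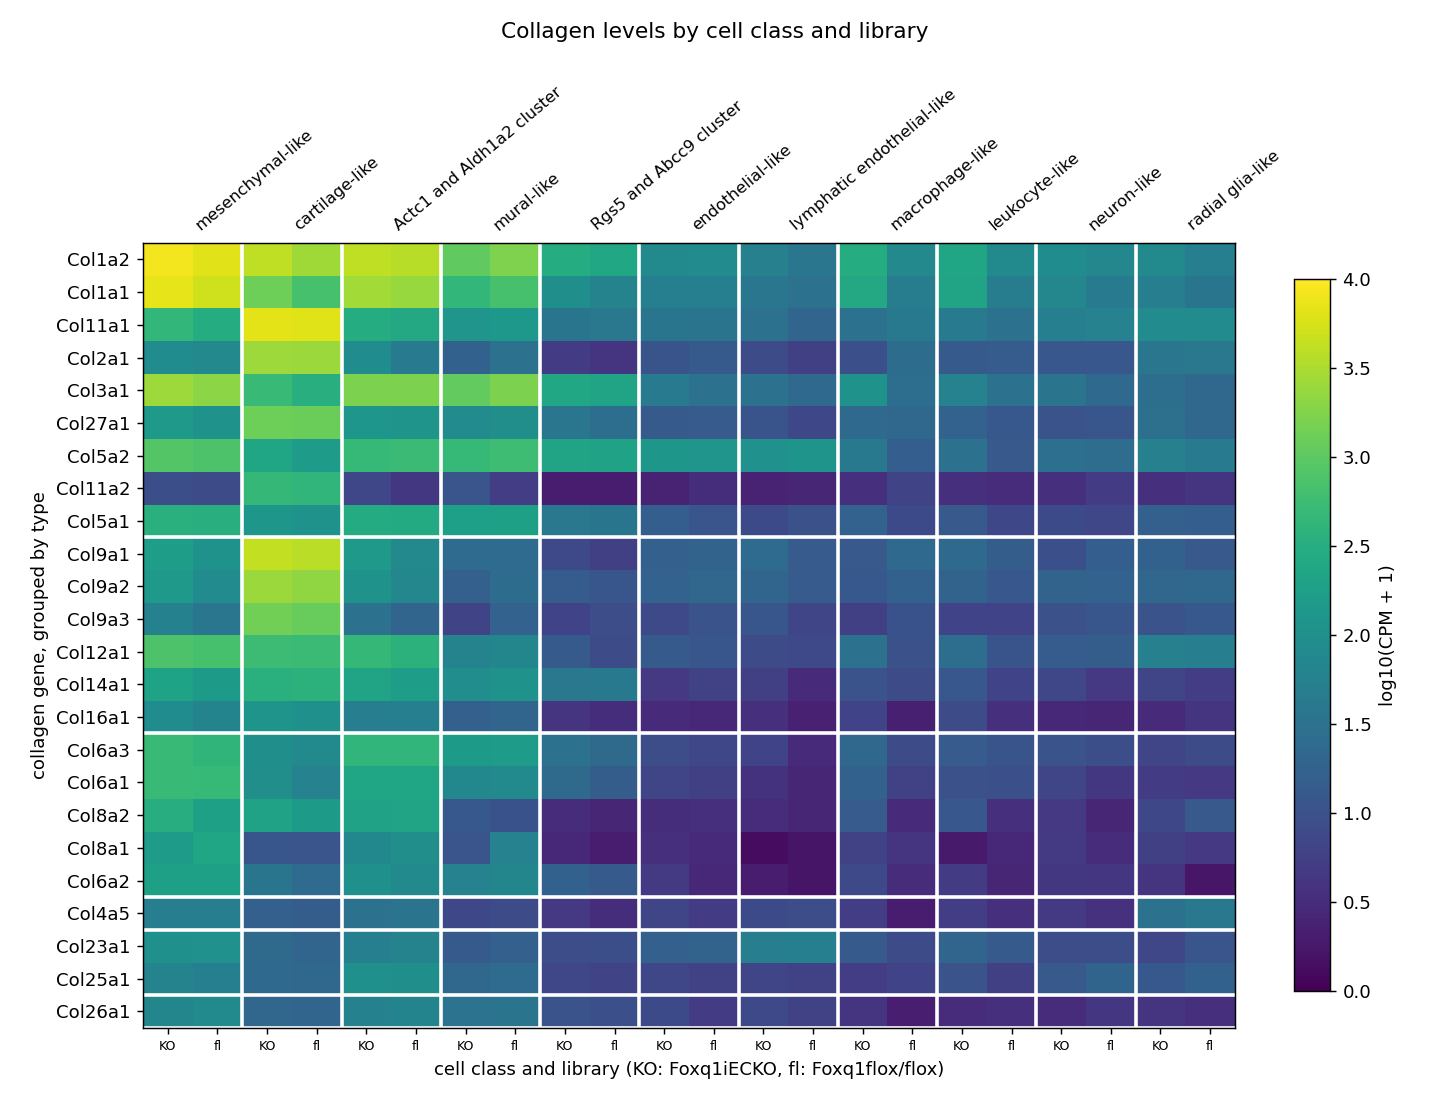
Levels of the 24 collagens that reached 50 CPM (rows, grouped by type) in 11 cell classes (columns), as log10(CPM + 1), with the Foxq1iECKO library left of the Foxq1flox/flox library in each class. Type I and III rows are brightest in mesenchymal-like cells, type II, IX and XI rows in cartilage-like cells, and Col5a2 stands above the other members in endothelial-like cells at 129 CPM in the Foxq1iECKO and 122 CPM in the Foxq1flox/flox library.

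Among fibrillar collagens, Col1a1 and Col1a2, the chains of type I, led in mesenchymal-like cells. Col1a2 stood at 8424 CPM (95% Poisson interval 8373 to 8476) in the Foxq1iECKO library and 6494 CPM (6445 to 6544) in the Foxq1flox/flox library. Col1a1 stood at 7045 CPM in the Foxq1iECKO library and 5064 CPM in the Foxq1flox/flox library. Col1a1 had 0.84 tags per tag of Col1a2 in Foxq1iECKO and 0.78 in Foxq1flox/flox mesenchymal-like cells. The ratio was 0.32 in Foxq1iECKO and 0.26 in Foxq1flox/flox cartilage-like cells, and 0.42 in Foxq1iECKO and 0.41 in Foxq1flox/flox mural-like cells. Mesenchymal-like cells thus had more Col1a1 for their Col1a2 than cartilage-like and mural-like cells. Macrophage-like cells had 0.88 in the Foxq1iECKO and 0.62 in the Foxq1flox/flox library, and leukocyte-like cells 0.93 in the Foxq1iECKO and 0.62 in the Foxq1flox/flox library. Tags of different genes are caught with unknown efficiency, so these ratios compare classes and are not chain ratios. Col3a1, which forms fibrils with type I in soft tissue, stood at 2586 CPM in Foxq1iECKO and 2038 CPM in Foxq1flox/flox mesenchymal-like cells. It stood at 1090.2 CPM in Foxq1iECKO and 1599 CPM in Foxq1flox/flox mural-like cells. The type V chains, which start and limit type I fibrils, were lower. In mesenchymal-like cells Col5a2 stood at 857 CPM in the Foxq1iECKO and 769 CPM in the Foxq1flox/flox library, and Col5a1 at 349 CPM in the Foxq1iECKO and 320.2 CPM in the Foxq1flox/flox library.

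The cartilage fibril chains were set apart by class. Col11a1, which nucleates cartilage fibrils, stood at 6874 CPM in Foxq1iECKO and 6359 CPM in Foxq1flox/flox cartilage-like cells against 450.3 CPM in Foxq1iECKO and 299 CPM in Foxq1flox/flox mesenchymal-like cells. Col2a1, the main cartilage collagen, stood at 2624 CPM in Foxq1iECKO and 2493 CPM in Foxq1flox/flox cartilage-like cells against 86.3 CPM in Foxq1iECKO and 75.6 CPM in Foxq1flox/flox mesenchymal-like cells. Both genes were more than 10-fold higher in cartilage-like cells in each library. Col11a2 stood at 458 CPM in Foxq1iECKO and 430.5 CPM in Foxq1flox/flox cartilage-like cells and under 11 CPM in every other class. Col27a1, a fibrillar collagen of growing cartilage, stood at 1325 CPM in Foxq1iECKO and 1278 CPM in Foxq1flox/flox cartilage-like cells. The type II, IX and XI chains made up 66.5% of member UMIs in Foxq1iECKO and 71.3% in Foxq1flox/flox cartilage-like cells, against 3.89% in Foxq1iECKO and 3.38% in Foxq1flox/flox mesenchymal-like cells.

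Across the 26 clusters, the genes outside the family whose levels were most like Col1a1 were Lum (Pearson r = 0.98), Ogn, Ctsk, Lox and Dnm3os. Those most like Col2a1 were Cnmd (r = 0.95), Acan, Mia, Matn4 and Cytl1. Within the family, Col9a1 and Col9a2 moved together with r = 0.98 and Col6a1 and Col6a2 with r = 0.98, while Col1a1 and Col2a1 had r = 0.59. These values are descriptions over clusters that share 2 libraries.

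Fibril-associated members followed both patterns. The type IX chains, which coat type II fibrils, were highest in cartilage-like cells. There Col9a1 stood at 4332 CPM in the Foxq1iECKO and 3880 CPM in the Foxq1flox/flox library. Col9a2 stood at 2487 CPM in the Foxq1iECKO and 2186 CPM in the Foxq1flox/flox library, and Col9a3 at 1399 CPM in the Foxq1iECKO and 1176 CPM in the Foxq1flox/flox library. Col12a1, which coats type I fibrils, was shared between classes. It had 770.5 CPM in Foxq1iECKO and 696 CPM in Foxq1flox/flox mesenchymal-like cells and 552 CPM in Foxq1iECKO and 539.7 CPM in Foxq1flox/flox cartilage-like cells. Col14a1, a relative of Col12a1, stood at 341 CPM in Foxq1iECKO and 371 CPM in Foxq1flox/flox cartilage-like cells, and Col16a1 at 117 CPM in the Foxq1iECKO and 102 CPM in the Foxq1flox/flox library.

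Of the network and beaded-filament members, the 5 that reached 50 CPM were highest in mesenchymal-like cells. The type VI chains form beaded microfibrils around cells. In mesenchymal-like cells Col6a3 stood at 493 CPM in the Foxq1iECKO and 419 CPM in the Foxq1flox/flox library, and Col6a1 at 491 CPM in the Foxq1iECKO and 482 CPM in the Foxq1flox/flox library. Col6a2 stood at 190.0 CPM in the Foxq1iECKO and 186 CPM in the Foxq1flox/flox library. In the same class Col8a2, a short-chain network collagen, stood at 308 CPM in the Foxq1iECKO and 186 CPM in the Foxq1flox/flox library, and its partner chain Col8a1 at 164 CPM in the Foxq1iECKO and 230.3 CPM in the Foxq1flox/flox library. The clusters of mesenchymal-like cells, each called here by a leading gene, split this pair. Col8a1 stood at 431 CPM in Foxq1iECKO and 419.9 CPM in Foxq1flox/flox cells of the Twist2 cluster against 119.5 CPM in Foxq1iECKO and 119 CPM in Foxq1flox/flox cells of the Ibsp cluster, whose leading genes include the bone genes Sp7 and Runx2. Col8a2 ran the other way, at 96.5 CPM in Foxq1iECKO and 61.5 CPM in Foxq1flox/flox cells of the Twist2 cluster and 659 CPM in Foxq1iECKO and 557 CPM in Foxq1flox/flox cells of the Ibsp cluster. Col10a1, the collagen of hypertrophic cartilage, was near 0 in cartilage-like cells, with 0.396 CPM in the Foxq1iECKO and 0.27 CPM in the Foxq1flox/flox library. It was highest in mural-like cells, with 0.789 CPM in the Foxq1iECKO and 18.7 CPM in the Foxq1flox/flox library. Col6a6, Col6a4 and Col6a5 were highest in the Actc1 and Aldh1a2 cluster, where Col6a6 stood at 11.1 CPM in the Foxq1iECKO and 10.6 CPM in the Foxq1flox/flox library.

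Col4a5, a basement membrane chain outside the vascular pair, stood at 49.6 CPM in Foxq1iECKO and 51.0 CPM in Foxq1flox/flox mesenchymal-like cells and 31.5 CPM in Foxq1iECKO and 39.7 CPM in Foxq1flox/flox radial glia-like cells. The transmembrane collagens at 10 CPM or more were highest in mesenchymal-like cells or in the Actc1 and Aldh1a2 cluster. Col23a1 stood at 99.8 CPM in Foxq1iECKO and 106 CPM in Foxq1flox/flox mesenchymal-like cells and 49.9 CPM in Foxq1iECKO and 51.4 CPM in Foxq1flox/flox lymphatic endothelial-like cells, against 16.1 CPM in Foxq1iECKO and 17.5 CPM in Foxq1flox/flox endothelial-like cells. Col25a1 stood at 102 CPM in Foxq1iECKO and 95.8 CPM in Foxq1flox/flox cells of the Actc1 and Aldh1a2 cluster. Col13a1 stood at 15.97 CPM in Foxq1iECKO and 11.8 CPM in Foxq1flox/flox mesenchymal-like cells, and at 9.64 CPM in Foxq1iECKO and 17.97 CPM in Foxq1flox/flox cells of the Actc1 and Aldh1a2 cluster. In endothelial-like cells it was close to these levels, at 11.99 CPM in the Foxq1iECKO and 9.26 CPM in the Foxq1flox/flox library. It stood at 0.314 CPM in Foxq1iECKO and 1.44 CPM in Foxq1flox/flox leukocyte-like cells, and at 0.611 CPM in Foxq1iECKO and 0.561 CPM in Foxq1flox/flox neuron-like cells. Col26a1, which is secreted, stood at 68.1 CPM in Foxq1iECKO and 77.8 CPM in Foxq1flox/flox mesenchymal-like cells. Members under 10 CPM in every class were Col22a1, Col4a6, Col19a1, Col7a1, Col28a1, Col20a1, Col4a3, Col5a3, Col17a1, Col6a4, Col6a5 and Col4a4, and Col24a1, Col10a1, Col13a1 and Col6a6 peaked between 10 and 50 CPM.

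Between genotypes in mesenchymal-like cells, 4 of 25 measured members (10 CPM or more in a library) were higher by size in the Foxq1iECKO library and 1 was lower. By size means a ratio of at least 1.5 with a counting interval that leaves out 1, which 1.38% of all 8710 genes measured there met as higher and 1.39% as lower. Col9a2 stood at 141 CPM in the Foxq1iECKO library and 83.0 CPM in the Foxq1flox/flox library, a log2 ratio of 0.77 (0.65 to 0.89). Col8a2 had a log2 ratio of 0.73 (0.65 to 0.81), Col9a3 of 0.64 (0.45 to 0.82) and Col11a1 of 0.59 (0.53 to 0.65). Col24a1, a fibrillar collagen of bone, stood at 18.7 CPM in the Foxq1iECKO library and 29.3 CPM in the Foxq1flox/flox library, a log2 ratio of -0.65 (-0.90 to -0.40). The median over the 25 members was 0.23, against -0.04 over all genes measured. The cartilage marker list was higher too, at 675 CPM in Foxq1iECKO and 525 CPM in Foxq1flox/flox mesenchymal-like cells. In it 11 of 15 genes were above the Foxq1flox/flox level. The meningeal list stood at 709 CPM in Foxq1iECKO and 538 CPM in Foxq1flox/flox mesenchymal-like cells, with 8 of 10 genes above. The macrophage list was also higher, at 76.3 CPM in Foxq1iECKO and 58.0 CPM in Foxq1flox/flox cells, with 12 of 13 above. The class's own mesenchymal list was lower, at 5115 CPM in Foxq1iECKO and 5597 CPM in Foxq1flox/flox cells, with 8 of 19 above. So was the osteogenic list, at 467 CPM in Foxq1iECKO and 530 CPM in Foxq1flox/flox cells, with 9 of 12 above. In such counts a gene at 0 in both libraries is not above. The part of these lists in the result was not tested.

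The mix of clusters within mesenchymal-like cells differed between the libraries, and with clusters weighted equally 0 members were higher and 0 lower by size. The Cldn11 cluster, with meningeal markers, held 517 Foxq1iECKO and 269 Foxq1flox/flox cells, and the Ibsp cluster 540 Foxq1iECKO and 351 Foxq1flox/flox cells. The Twist2 cluster held 491 Foxq1iECKO and 750 Foxq1flox/flox cells, and the Tnn cluster 951 Foxq1iECKO and 776 Foxq1flox/flox cells. The Cldn11 and Ibsp clusters were the ones with most Col11a1 and Col8a2. Within clusters the called members varied. In the Ibsp cluster Col9a2 had a log2 ratio of 0.11, Col9a3 of 0.15, Col11a1 of 0.15 and Col8a2 of 0.24, and in the Tnn cluster all 4 lay between -0.12 and 0.39. In the Cldn11 cluster the type IX chains were higher by size, Col9a2 with 0.76 (0.50 to 1.02), Col9a3 with 1.24 (0.64 to 1.88) and Col9a1 with 0.65 (0.35 to 0.96). In the Twist2 cluster Col9a2, with 0.98 (0.56 to 1.41), and Col8a2, with 0.65 (0.39 to 0.91), were higher by size, while Col11a1 was inside the size of 1.5 in all 4 clusters. Col1a1 was above 0 in all 4 clusters, with log2 ratios of 0.24 to 0.44, and Col1a2 with 0.12 to 0.38, all under the size of 1.5.

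**Figure D2:**
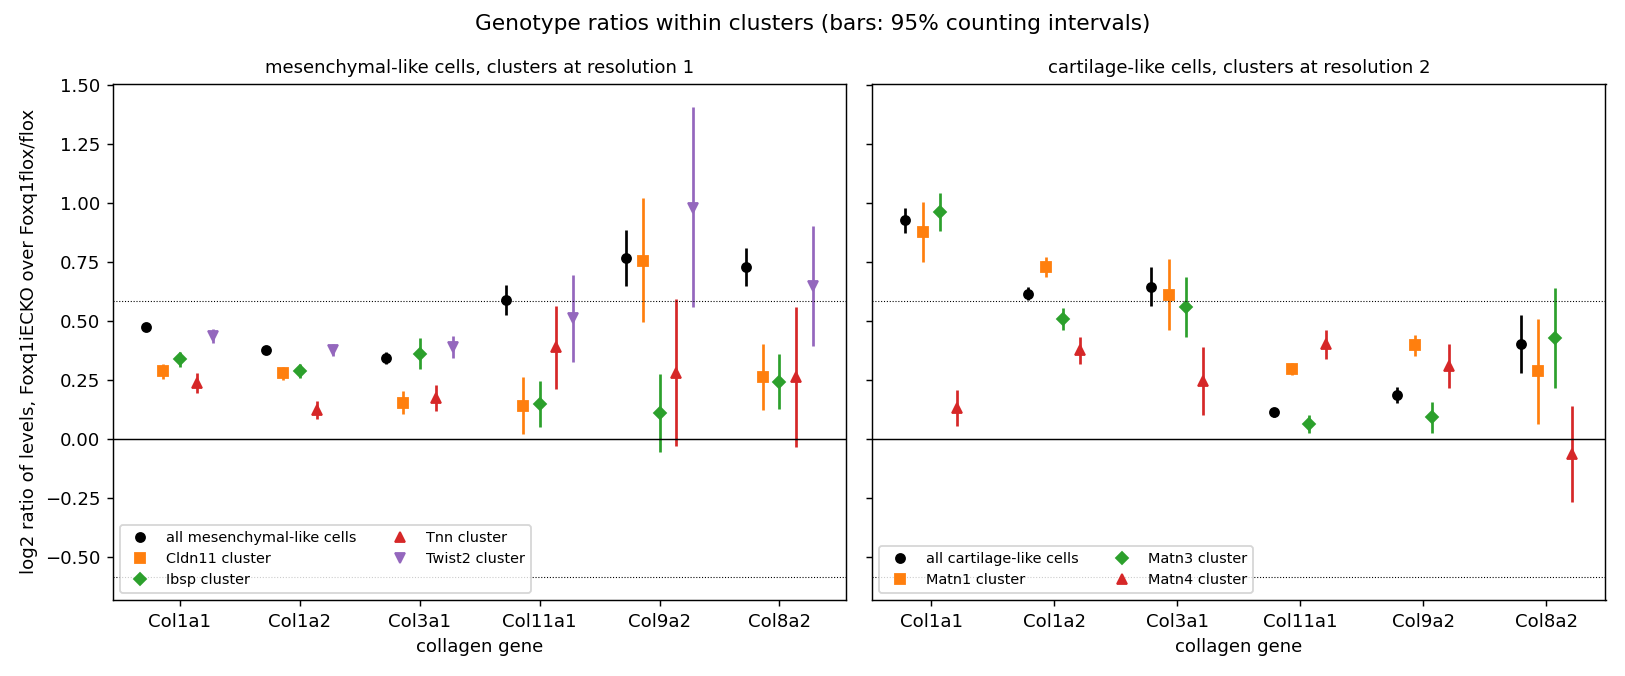
Log2 ratios of 6 collagens, Foxq1iECKO over Foxq1flox/flox, over whole classes and within their clusters, with 95% counting intervals and dotted lines at a ratio of 1.5. In mesenchymal-like cells Col11a1 and Col8a2 lie above the clusters' own values when cells are pooled, while in cartilage-like cells Col1a1 is high in the Matn1 and Matn3 clusters and at 0.13 in the Matn4 cluster.

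In cartilage-like cells 5 of 24 measured members were higher by size in the Foxq1iECKO library and 0 were lower, beside 1.69% higher and 1.72% lower of all 8426 genes measured there. The 5 were all outside the type II, IX and XI chains. Col1a1 stood at 1301 CPM in the Foxq1iECKO library and 684 CPM in the Foxq1flox/flox library, a log2 ratio of 0.93 (0.87 to 0.98). Col1a2 stood at 4106 CPM in the Foxq1iECKO library and 2678 CPM in the Foxq1flox/flox library, a log2 ratio of 0.62 (0.59 to 0.65). Col6a1, Col3a1 and Col5a2 had log2 ratios of 0.71, 0.65 and 0.61. Over the whole class the type II, IX and XI chains lay between 0.07 for Col2a1 and 0.25 for Col9a3. At resolution 2 the Matn1, Matn3 and Matn4 subclusters gave Col1a1 log2 ratios of 0.88, 0.96 and 0.13. The Matn1 subcluster, lowest in Col1a1, held 442 Foxq1iECKO and 828 Foxq1flox/flox cells. The Matn3 subcluster held 286 Foxq1iECKO and 320 Foxq1flox/flox cells, and the Matn4 subcluster 290 Foxq1iECKO and 322 Foxq1flox/flox cells. Col1a2 and Col3a1 were higher by size only in the Matn1 subcluster, Col5a2 only in Matn3, and Col6a1 in Matn1 and Matn3. The type II, IX and XI chains lay between 0.20 for Col2a1 and 0.40 for Col9a2 in Matn1. In Matn3 they lay between -0.09 for Col11a2 and 0.22 for Col9a3. In Matn4 they lay between 0.21 for Col9a1 and 0.50 for Col9a3, where Col1a2 had 0.38. The contrast of the whole class between these chains and Col1a1 was thus not seen in Matn4. The part of the subcluster mix in the calls was not tested. The mesenchymal marker list stood at 2008 CPM in the Foxq1iECKO and 1763 CPM in the Foxq1flox/flox cartilage-like cells, with 9 of 19 genes above the Foxq1flox/flox level. The osteogenic list stood at 228 CPM in the Foxq1iECKO and 187 CPM in the Foxq1flox/flox cartilage-like cells, with 11 of 12 genes above. The pericyte list stood at 246 CPM in the Foxq1iECKO and 194 CPM in the Foxq1flox/flox cartilage-like cells, with 9 of 11 genes above. The part of these lists in the type I and III values was not tested. With the leukocyte-like level subtracted, an alternative chosen after the data were seen, Col1a1, Col3a1 and Col6a1 were higher by size and Col1a2 and Col5a2 were not.

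In mural-like cells 0 of 24 measured members were higher by size and 6 were lower, beside 2.31% higher and 3.92% lower of all 8879 genes measured there. Col1a2 stood at 1053 CPM in the Foxq1iECKO library and 1654 CPM in the Foxq1flox/flox library, a log2 ratio of -0.65 (-0.75 to -0.55). Col1a1 stood at 437 CPM in the Foxq1iECKO library and 675 CPM in the Foxq1flox/flox library, a log2 ratio of -0.63 (-0.79 to -0.47). Col8a1 had 13 UMIs in the Foxq1iECKO library and 69 UMIs in the Foxq1flox/flox library, a log2 ratio of -2.51 (-3.49 to -1.64). The other 3 rested on few cells. Col10a1 had 1 UMI in the Foxq1iECKO library and 22 UMIs in the Foxq1flox/flox library, of which 1 cell held 36.4%. Of the 20 Foxq1flox/flox UMIs of Col9a3 1 cell held 55.0%, and of the 35 of Col2a1 1 cell held 45.7%. The mesenchymal marker list was lower too, at 834 CPM in the Foxq1iECKO and 1144 CPM in the Foxq1flox/flox mural-like cells. In it 2 of 19 genes were above the Foxq1flox/flox level and Osr1 was at 0 in both. The macrophage list stood at 88.4 CPM in Foxq1iECKO and 122 CPM in Foxq1flox/flox cells, with 3 of 13 above. The smooth muscle list stood at 735 CPM in Foxq1iECKO and 895 CPM in Foxq1flox/flox cells, with 1 of 9 above. The cartilage list stood at 254 CPM in Foxq1iECKO and 298 CPM in Foxq1flox/flox cells, with 4 of 15 above. The pericyte list was higher, at 12412 CPM in Foxq1iECKO and 11522 CPM in Foxq1flox/flox cells, with 6 of 11 above. The part of these lists in the result was not tested. Under scaling by the median of ratios 3 members were lower by size, without Col1a1, Col1a2 and Col2a1.

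In endothelial-like cells 0 of 13 measured members were higher and 0 lower by size, beside 1.02% higher and 0.972% lower of all 8025 genes measured there. Col5a2 was the most abundant, at 129 CPM (122 to 136) in the Foxq1iECKO library and 122 CPM (116 to 127) in the Foxq1flox/flox library. With each cell thinned to 2000 UMIs, 22.6% of Foxq1iECKO and 23.7% of Foxq1flox/flox endothelial-like cells had a Col5a2 UMI, against 4.09% of Foxq1iECKO and 2.42% of Foxq1flox/flox leukocyte-like cells. For Col1a1 the same shares were 8.49% in Foxq1iECKO and 7.25% in Foxq1flox/flox endothelial-like cells and 8.18% in Foxq1iECKO and 5.77% in Foxq1flox/flox leukocyte-like cells. The endothelial-like cells had medians of 3977 UMIs in the Foxq1iECKO and 4199 UMIs in the Foxq1flox/flox library before thinning, against 4288 UMIs in Foxq1iECKO and 4603 UMIs in Foxq1flox/flox leukocyte-like cells. The Col1a1 share in endothelial-like cells was close to that in leukocyte-like cells, and the source of the Col1a1 UMIs in either class was not tested. Within the 3 endothelial-like clusters members went both ways, and the share of all genes called within a cluster was not computed. Col1a1 was higher by size in the Spock2 cluster, with a log2 ratio of 0.73 (0.40 to 1.06), and in the Aplnr cluster, with 0.80 (0.38 to 1.23), and lower in the Tmem255a cluster, with -0.69 (-0.91 to -0.47). Of the other members at 10 CPM in a library, Col3a1 and Col5a1 were higher by size in the Spock2 cluster, and Col5a1, Col6a2, Col8a1 and Col12a1 were higher and Col9a1 and Col23a1 lower in the Aplnr cluster. There Col23a1 stood at 20.3 CPM in the Foxq1iECKO and 61.6 CPM in the Foxq1flox/flox library, a log2 ratio of -1.60 (-2.39 to -0.88). Counts of 0 by size hold under the class as defined: with the Rgs5 and Abcc9 and haemoglobin clusters added, 4 members were higher and 1 lower, and under the stricter cell filter 5 were higher. The share of all genes called under these other settings was not computed.

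**Figure D3:**
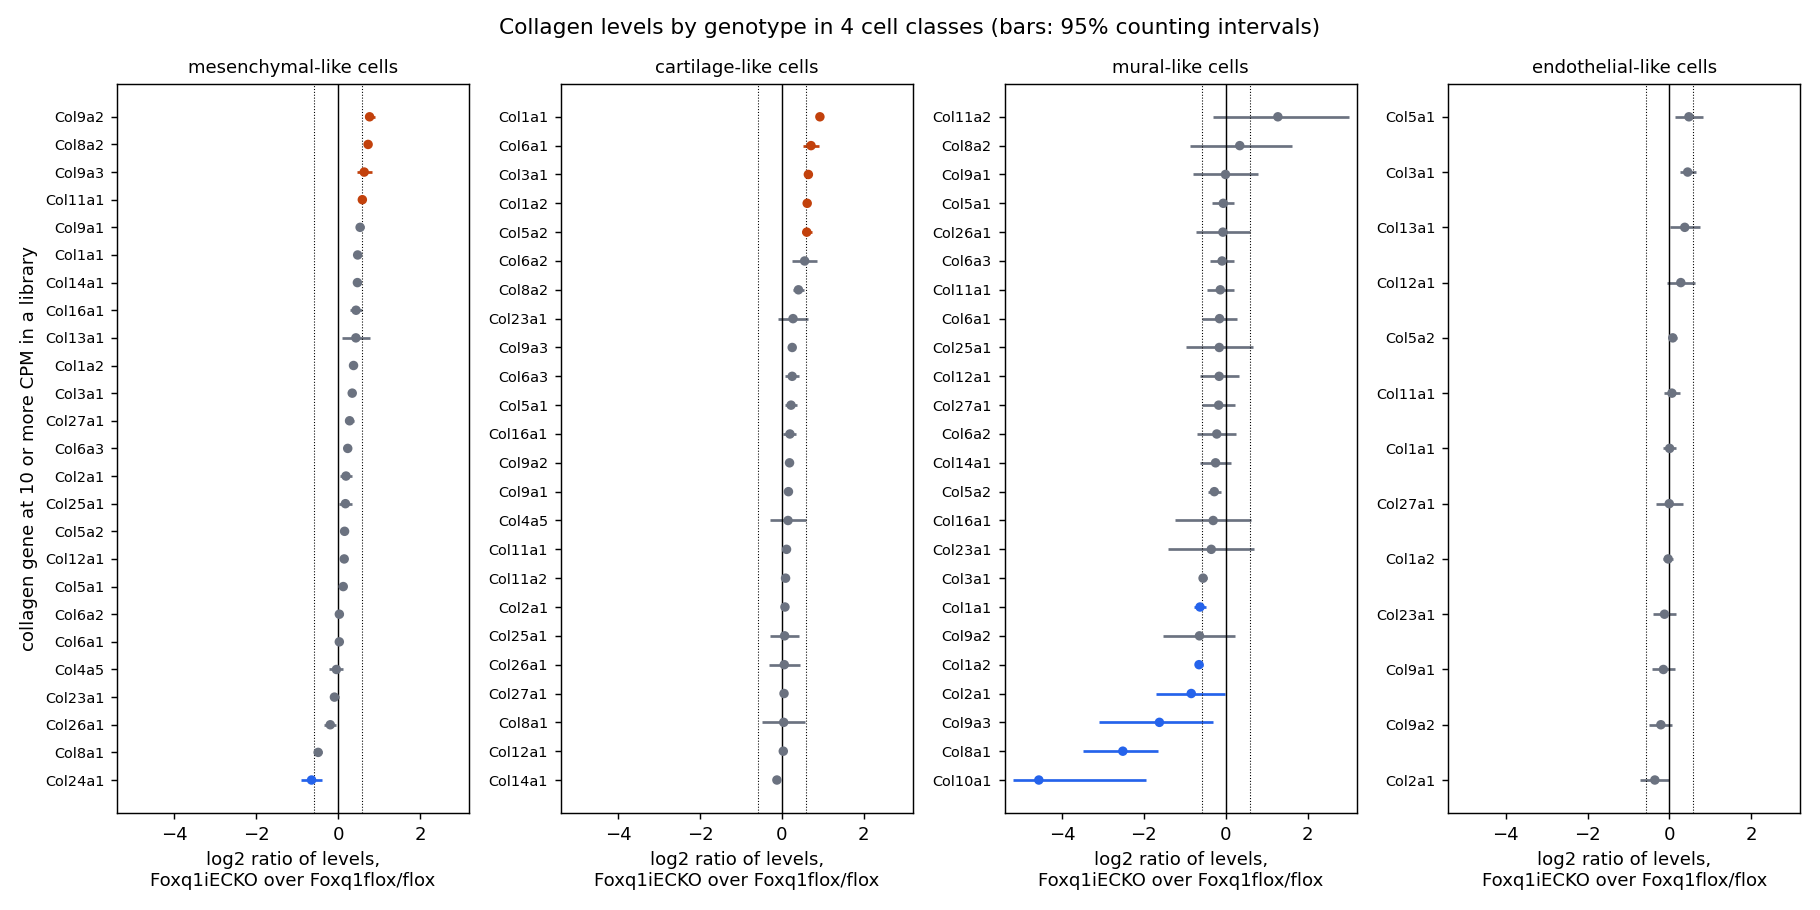
Log2 ratios, Foxq1iECKO over Foxq1flox/flox, of every collagen measured in 4 cell classes, with 95% counting intervals (2 ends run past the axis) and dotted lines at a ratio of 1.5. Orange points are higher and blue points lower by size: 4 and 1 in mesenchymal-like, 5 and 0 in cartilage-like, 0 and 6 in mural-like and 0 and 0 in endothelial-like cells.

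In the Actc1 and Aldh1a2 cluster 4 of 26 measured members were higher by size and 2 lower, beside 2.54% higher and 2.78% lower of all genes measured there. The higher ones were the cartilage chains Col2a1, with 88.6 CPM in the Foxq1iECKO and 44.2 CPM in the Foxq1flox/flox library, Col9a1, Col9a2 and Col9a3, and the lower ones Col13a1 and Col24a1. In the Rgs5 and Abcc9 cluster 3 of 13 were higher, Col12a1, Col6a1 and Col1a1, and 0 lower, beside 1.82% of genes higher and 0.993% lower. In lymphatic endothelial-like cells 3 of 10 were higher, Col9a1, Col9a3 and Col11a1, and 0 lower, beside 1.55% of genes higher and 2.33% lower. Radial glia-like cells had 0 of 16 higher and 2 lower, Col8a2 and Col23a1, beside 1.59% of genes higher and 2.52% lower. Neuron-like cells had 1 of 12 higher, Col1a1, and 2 lower, Col9a1 and Col25a1, beside 2.27% of genes higher and 3.63% lower. The haemoglobin cluster, with 106 Foxq1iECKO and 180 Foxq1flox/flox cells, had 2 of 14 higher, Col3a1 and Col6a3, and 5 lower, Col9a1, Col2a1, Col11a1, Col9a2 and Col1a1, beside 3.77% of genes higher and 2.7% lower.

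Genes that modify, cleave, cross-link or bind collagen were read from a list of 46. In mesenchymal-like cells 32 were measured, 1 was higher by size (P3h4, with 13.2 CPM in the Foxq1iECKO library and 7.04 CPM in the Foxq1flox/flox library) and 0 were lower. Of all genes measured there, 1.38% were higher and 1.39% lower. The most abundant there was Lox, a cross-linking oxidase, at 599 CPM in the Foxq1iECKO and 788 CPM in the Foxq1flox/flox library. The collagen chaperone Serpinh1 followed at 404 CPM in the Foxq1iECKO and 422 CPM in the Foxq1flox/flox library. The collagen receptor Ddr2 stood at 353 CPM in the Foxq1iECKO and 343 CPM in the Foxq1flox/flox library, and Loxl2 at 298 CPM in the Foxq1iECKO and 311 CPM in the Foxq1flox/flox library. In cartilage-like cells 0 of 35 were higher or lower, beside 1.69% higher and 1.72% lower of all genes measured there. The lysyl hydroxylase Plod2 stood at 1303 CPM in the Foxq1iECKO and 1427 CPM in the Foxq1flox/flox library. In mural-like cells 1 of 32 was higher (Creb3l1) and 3 were lower (P3h1, P3h2 and Lox). All genes measured there were 2.31% higher and 3.92% lower by size. Lox stood at 31.6 CPM in Foxq1iECKO and 62.8 CPM in Foxq1flox/flox mural-like cells, a log2 ratio of -0.99 (-1.59 to -0.42). In endothelial-like cells 1 of 22 was higher, Ddr2, with 14.8 CPM in the Foxq1iECKO library and 9.19 CPM in the Foxq1flox/flox library. The share over all genes measured there was 1.02% higher and 0.972% lower.

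Immune cells, not a main source of fibrillar collagen, held collagen UMIs in both libraries and more in the Foxq1iECKO library. The summed level was 967 CPM in Foxq1iECKO and 370.1 CPM in Foxq1flox/flox macrophage-like cells. That was 4.14% of the mesenchymal-like level in the Foxq1iECKO library and 2.03% in the Foxq1flox/flox library. In leukocyte-like cells it was 798 CPM in the Foxq1iECKO and 339 CPM in the Foxq1flox/flox library, or 3.42% in the Foxq1iECKO and 1.87% in the Foxq1flox/flox library. Neuron-like cells held 420.3 CPM in the Foxq1iECKO and 377 CPM in the Foxq1flox/flox library.

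A small share of the cells carried much of the immune signal. The 1% of macrophage-like cells with most collagen held 45.3% of its member UMIs in the Foxq1iECKO library and 35.5% in the Foxq1flox/flox library. In leukocyte-like cells that share was 57.1% in the Foxq1iECKO and 40.2% in the Foxq1flox/flox library, in endothelial-like cells 19.3% in the Foxq1iECKO and 21.7% in the Foxq1flox/flox library. Without these cells the macrophage-like level was 542 CPM in the Foxq1iECKO library and 244 CPM in the Foxq1flox/flox library, and the leukocyte-like level 349 CPM in the Foxq1iECKO and 207 CPM in the Foxq1flox/flox library. The median macrophage-like cell stood at 182 CPM in the Foxq1iECKO and 143 CPM in the Foxq1flox/flox library, under the median neuron-like cell at 253 CPM in the Foxq1iECKO and 227 CPM in the Foxq1flox/flox library. With predicted doublets kept, the summed level in macrophage-like cells was 7.58% of the mesenchymal-like one in the Foxq1iECKO library and 3.94% in the Foxq1flox/flox library, and in leukocyte-like cells 5.86% in the Foxq1iECKO and 4.78% in the Foxq1flox/flox library. Which process put these UMIs in immune cells was not tested.

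**Figure D4:**
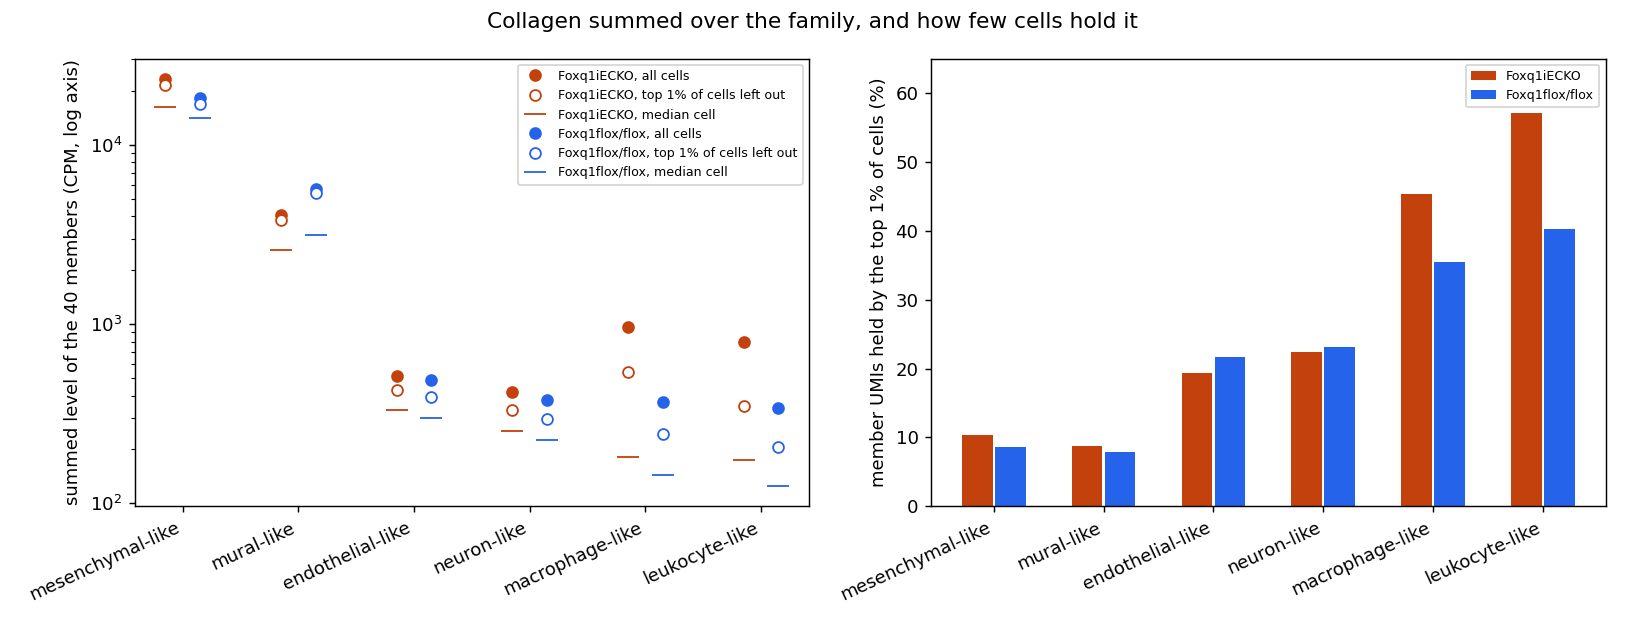
Left, summed level of the 40 members per class on a log axis, over all cells, without the 1% of cells with most collagen, and in the median cell. Right, the share of member UMIs that this 1% holds, which reaches 57.1% in Foxq1iECKO and 40.2% in Foxq1flox/flox leukocyte-like cells and is 10.4% in Foxq1iECKO and 8.57% in Foxq1flox/flox mesenchymal-like cells.

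Single members differed in their levels in immune cells. Among macrophage-like cells 10 of 15 measured members were higher by size and 2 lower, beside 3.02% higher and 0.585% lower of all 8204 genes there. Col1a1 stood at 262 CPM in the Foxq1iECKO library and 46.7 CPM in the Foxq1flox/flox library, a log2 ratio of 2.49 (2.33 to 2.65). Without the top cells it stood at 117 CPM in the Foxq1iECKO and 31.4 CPM in the Foxq1flox/flox library. The other higher ones were Col1a2, Col3a1, Col5a1, Col5a2, Col6a1, Col6a3, Col8a2, Col12a1 and Col23a1, and Col2a1 and Col9a1 were the lower ones. Col2a1 stood at 8.45 CPM in the Foxq1iECKO library and 24.8 CPM in the Foxq1flox/flox library, and without the top cells at 7.32 CPM in the Foxq1iECKO and 7.61 CPM in the Foxq1flox/flox library. The type II, IX and XI chains made up 7.27% of collagen UMIs in Foxq1iECKO and 31.9% in Foxq1flox/flox macrophage-like cells. In the Lyve1 cluster of macrophage-like cells Col1a1 stood at 416 CPM in the Foxq1iECKO and 53.2 CPM in the Foxq1flox/flox library. Its level within the P2ry12 cluster, with microglial genes, was 69.6 CPM in the Foxq1iECKO and 42.1 CPM in the Foxq1flox/flox library. The mesenchymal marker list was higher too, at 211 CPM in Foxq1iECKO and 91.3 CPM in Foxq1flox/flox macrophage-like cells. In it 17 of 19 genes were above the Foxq1flox/flox level and 2 were at 0 in both. The cartilage list stood at 126 CPM in Foxq1iECKO and 164 CPM in Foxq1flox/flox macrophage-like cells, with 2 of 15 genes above and 2 at 0 in both. The part of both lists in the result was not tested. In leukocyte-like cells 11 of 15 measured members were higher and 0 lower, beside 3.09% higher and 2.53% lower of all 8772 genes there, with Col1a1 at 215 CPM in the Foxq1iECKO and 48.8 CPM in the Foxq1flox/flox library. The others were Col1a2, Col3a1, Col5a1, Col5a2, Col8a2, Col9a1, Col9a2, Col12a1, Col14a1 and Col23a1. In the H2-Aa cluster of leukocyte-like cells the summed level was 1621 CPM in the Foxq1iECKO and 485 CPM in the Foxq1flox/flox library, and 3 of its 266 Foxq1iECKO cells held 64.1% of the member UMIs. In the Cpa3 cluster the summed level was 268 CPM in the Foxq1iECKO and 202 CPM in the Foxq1flox/flox library. In the small S100a8 cluster Col1a1 stood at 321 CPM in the Foxq1iECKO and 42.3 CPM in the Foxq1flox/flox library. Other cells' marker lists in leukocyte-like cells were not all higher in the Foxq1iECKO library. The mesenchymal list stood at 139 CPM in the Foxq1iECKO and 109 CPM in the Foxq1flox/flox library. In it 10 of 19 genes were above the Foxq1flox/flox level and 2 were at 0 in both. The meningeal list stood at 41.2 CPM in the Foxq1iECKO and 25.2 CPM in the Foxq1flox/flox library, with 6 of 10 genes above. The pericyte list stood at 112 CPM in the Foxq1iECKO and 75.7 CPM in the Foxq1flox/flox library, with 5 of 11 genes above, and the smooth muscle list at 24.2 CPM in the Foxq1iECKO and 15.1 CPM in the Foxq1flox/flox library, with 6 of 9 above. The cartilage list stood at 257 CPM in the Foxq1iECKO and 213 CPM in the Foxq1flox/flox library, with 11 of 15 genes above and 3 at 0 in both. The osteogenic list stood at 195 CPM in the Foxq1iECKO and 202 CPM in the Foxq1flox/flox library, with 3 of 12 above and 3 at 0 in both. The endothelial list had 440 CPM in Foxq1iECKO and 451 CPM in Foxq1flox/flox cells, with 5 of 14 above. The skeletal muscle list had 33.3 CPM in Foxq1iECKO and 38.2 CPM in Foxq1flox/flox cells, with 1 of 11 above and 5 at 0 in both. The part of these lists in the result was not tested.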

How the data were processed

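The authors deposited raw UMI counts for each gene and barcode, 1 matrix for the Foxq1iECKO and 1 for the Foxq1flox/flox library. Per the submitters' processing notes, fastp 0.24.0 and STARsolo 2.7.11b were used with mm10. How multi-gene reads were handled is unknown.

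Barcodes were kept from 500 genes and 1000 UMIs up, if no more than 20% of UMIs were mitochondrial, and Scrublet doublets (scanpy 1.11.5, expected 8%) removed: 516 of 13108 Foxq1iECKO and 534 of 13933 Foxq1flox/flox cells. Counts were scaled to 10000 per cell, log-transformed and clustered on 2000 variable genes without any collagen, 30 components, 20 neighbours, Leiden resolution 1 (leidenalg 0.10.2). A class name needed 3 markers at 50 CPM and 2-fold above other cells (pseudocount 5 CPM). A cluster led by markers of another class stayed unnamed.

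UMIs were summed per class and library. Levels have exact Poisson intervals, ratios exact conditional binomial intervals, shares exact binomial ones, all 95%. No test between genotypes was possible. Simulated data were used to check how the size rule calls genes. In the simulated mural-like comparison (8313 genes) it called 2.10% of unchanged genes, over a first limit of 2%, and the limit was set to 5% after that value was seen. There it found 76.5% of genes made 2-fold higher and 77.1% of those made 2-fold lower. Every member was accounted for, and every member called by size was named, the 10 clearest where more than 10. The members, lists and rules were chosen with earlier results of these data known. Alternatives were scaling by DESeq2 1.42.0 and edgeR 4.0.16, levels, cell filters, doublets, resolution, clustering genes and cluster weights.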

Additional observations from a re-analysis of the deposited data

Results flagged for a closer look

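Over all the classes compared, 9 members were higher by size in the Foxq1iECKO library in one class and lower by size in another, and these differences between classes were not tested. The share of all genes called both ways across classes was not computed, so this count has no background beside it. Among the 4 main classes there were 3 such pairs. The log2 ratio of Col1a1 was 1.55 higher in cartilage-like than in mural-like cells, with 0.93 and -0.63. For Col1a2 the difference was 1.27, with 0.62 and -0.65. For Col9a3 the difference between mesenchymal-like and mural-like cells was 2.25, with 0.64 and -1.62, and rested on 7 Foxq1iECKO and 20 Foxq1flox/flox UMIs in mural-like cells.

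Over all classes, the widest difference was between macrophage-like cells and the haemoglobin cluster for Col1a1 (3.14), and between macrophage-like and mural-like cells for Col1a2 (2.64). Between macrophage-like and radial glia-like cells it was 3.64 for Col8a2 and 1.55 for Col23a1. For the cartilage chains the lower side was the haemoglobin cluster, with 106 Foxq1iECKO cells and 180 Foxq1flox/flox cells. Against it the Actc1 and Aldh1a2 cluster differed by 4.04 for Col9a1, with 3 Foxq1iECKO UMIs in the haemoglobin cluster, and by 3.66 for Col2a1, also with 3. Lymphatic endothelial-like cells differed from it by 2.31 for Col11a1, and mesenchymal-like cells by 1.94 for Col9a2. Col9a3 in lymphatic endothelial-like cells differed by 2.54 from mural-like cells.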

How the results depend on the processing

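Calls by size in mesenchymal-like, cartilage-like, mural-like and endothelial-like cells, and the class values below, were recomputed under up to 15 other settings. Calls by size in the other classes, immune cells among them, were not recomputed. The share of all genes called by size was computed under the main setting only, so counts under other settings have no background beside them. For the 16 pairs of a member and a main class called by size, 213 log2 ratios were recomputed. Of these, 181 kept their call, 32 lost it and 0 reversed. A call was also lost where the member fell under the minimum level of a setting. Of 295 recomputed class values, 206 stayed within their interval or within 1.5 times the count, and for the others the cause was not tested. Subtracting an erythroid-like level was not run, because no cluster was named erythroid-like, and subtracting the leukocyte-like level was chosen after seeing the data, as were the settings that add unnamed clusters, leave out shared barcodes or leave out the top 1% of cells. No paired analysis was possible because each genotype has 1 library. The summed level in mesenchymal-like over endothelial-like cells, 45.4 in Foxq1iECKO and 37.2 in Foxq1flox/flox cells, was 40.9 in Foxq1iECKO and 32.6 in Foxq1flox/flox with median-of-ratios scaling, 37.6 in Foxq1iECKO and 30.0 in Foxq1flox/flox with TMM scaling, 39.4 in Foxq1iECKO and 39.6 in Foxq1flox/flox with the stricter filter, 34.9 in Foxq1iECKO and 29.7 in Foxq1flox/flox with doublets kept. It was 26.7 in both libraries with resolution 0.5, 41.3 in Foxq1iECKO and 33.4 in Foxq1flox/flox with resolution 2, 41.4 in Foxq1iECKO and 33.1 in Foxq1flox/flox with collagens among the clustering genes, 39.7 in Foxq1iECKO and 36.2 in Foxq1flox/flox with equal cluster weights. It was 50.4 in Foxq1iECKO and 43.4 in Foxq1flox/flox with the top 1% of cells left out, 41.3 in Foxq1iECKO and 33.5 in Foxq1flox/flox with the Actc1 and Aldh1a2 cluster added, 29.9 in Foxq1iECKO and 29.8 in Foxq1flox/flox with the Rgs5 and haemoglobin clusters added. The macrophage-like level, 4.14% in Foxq1iECKO and 2.03% in Foxq1flox/flox cells, as a share of that in mesenchymal-like cells, was 4.9% in Foxq1iECKO and 2.47% in Foxq1flox/flox with median-of-ratios scaling, 5.16% in Foxq1iECKO and 2.54% in Foxq1flox/flox with TMM scaling, 4.76% in Foxq1iECKO and 2.2% in Foxq1flox/flox with the stricter filter, 7.58% in Foxq1iECKO and 3.94% in Foxq1flox/flox with doublets kept. It was 4.52% in Foxq1iECKO and 2.29% in Foxq1flox/flox with resolution 0.5, 4.85% in Foxq1iECKO and 2.16% in Foxq1flox/flox with resolution 2, 4.48% in Foxq1iECKO and 2.26% in Foxq1flox/flox with collagens among the clustering genes, 3.39% in Foxq1iECKO and 1.74% in Foxq1flox/flox with equal cluster weights. It was 2.52% in Foxq1iECKO and 1.43% in Foxq1flox/flox with the top 1% of cells left out, 4.55% in Foxq1iECKO and 2.26% in Foxq1flox/flox with the Actc1 and Aldh1a2 cluster added, 3.9% in Foxq1iECKO with shared barcodes left out. The leukocyte-like level, 3.42% in Foxq1iECKO and 1.87% in Foxq1flox/flox cells, as a share of that in mesenchymal-like cells, was 3.24% in Foxq1iECKO with TMM scaling, 2.45% in Foxq1iECKO and 2.02% in Foxq1flox/flox with the stricter filter, 5.86% in Foxq1iECKO and 4.78% in Foxq1flox/flox with doublets kept, 2.59% in Foxq1iECKO and 2.11% in Foxq1flox/flox with resolution 0.5. It was 3.76% in Foxq1iECKO with collagens among the clustering genes, 3.996% in Foxq1iECKO and 1.73% in Foxq1flox/flox with equal cluster weights, 1.62% in Foxq1iECKO and 1.22% in Foxq1flox/flox with the top 1% of cells left out, 3.75% in Foxq1iECKO and 2.07% in Foxq1flox/flox with the Actc1 and Aldh1a2 cluster added. It was 2.01% in Foxq1flox/flox with resolution 2. The 6 lower members in mural-like cells became 3 with median-of-ratios scaling. The 1 lower member in mesenchymal-like cells became 3 with no minimum level, 0 with equal cluster weights. The 1 higher processing gene in mesenchymal-like cells became 3 with no minimum level, 0 with a minimum of 20 CPM. The 0 higher processing genes in cartilage-like cells became 4 with no minimum level, 2 with doublets kept, 1 with resolution 0.5. The 1 higher processing gene in mural-like cells became 2 with no minimum level, 2 with the stricter filter, 0 with collagens among the clustering genes. The 0 higher members in endothelial-like cells became 2 with no minimum level, 5 with the stricter filter, 4 with resolution 0.5, 2 with equal cluster weights, 4 with the Rgs5 and haemoglobin clusters added. The 1 higher processing gene in endothelial-like cells became 2 with no minimum level, 0 with a minimum of 20 CPM, 3 with the stricter filter, 0 with doublets kept, 2 with resolution 0.5, 2 with the Rgs5 and haemoglobin clusters added. The 0 lower processing genes in endothelial-like cells became 1 with no minimum level, 1 with equal cluster weights. The 3 lower processing genes in mural-like cells became 5 with the stricter filter. The 4 higher members in mesenchymal-like cells became 2 with doublets kept, 0 with equal cluster weights. The 0 lower processing genes in cartilage-like cells became 1 with doublets kept. The 0 lower members in endothelial-like cells became 1 with equal cluster weights, 1 with the Rgs5 and haemoglobin clusters added. The 5 higher members in cartilage-like cells became 3 with the leukocyte-like level subtracted.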
